A study of Mus musculus with 9 samples.

Results

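Antioxidant and metal-binding genes of mouse lung, namely the NRF2 gene itself, 7 of its classical targets and both widely expressed metallothioneins, were followed across 9 lung libraries. The members were chosen by symbol (Nfe2l2, Slc7a11, Gclc, Gclm, Gsta3, Txnrd1, Srxn1, Hmox1, Mt1 and Mt2) and are 10 of 21884 genes in the expression table. NRF2, encoded by Nfe2l2, is a transcription factor that the adaptor KEAP1 holds at a low level by directing it to ubiquitin ligase. Oxidants and electrophiles modify KEAP1, and NRF2 that escapes it binds antioxidant response elements with small MAF partners. Its targets make glutathione, recycle thioredoxin, conjugate electrophiles and break down haem, while metallothioneins are small cysteine-rich proteins that bind zinc and copper and are induced by the zinc sensor MTF1 and by glucocorticoids.

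Messenger RNA of whole lung was sequenced in male BALB/c mice, 3 in each of 3 groups, which entered at 6 weeks of age and were killed on day 28. Naive mice received saline by both routes. OVA mice received 50 µg ovalbumin (OVA), an allergen from egg white, with 1 mg aluminium hydroxide by intraperitoneal injection on days 0, 7 and 14, and then 400 µg intranasal ovalbumin each day from day 21 to day 27, a regimen that models allergic asthma. OVA+PM2.5 mice received the same course and, in addition, nasal drops of fine particles (PM2.5, particulate matter up to 2.5 µm) daily from 7 days before the start until the day before the end. The labels name no particle-free drops for the OVA group, so that drops and particles cannot be told apart. Mice are numbered within a group, and nothing more is said of the replicates, so a p-value here measures only how these samples spread.

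Values are FPKM, fragments normalised to gene length and library size. The 9 libraries held 12142765 to 15748051 recovered fragments. Lung markers did not hold equally in all of them. The summed FPKM of 9 alveolar type 2 markers, led by surfactant genes, was 13585 to 24556 in Naive and 4790 to 14488 in OVA, but 201, 8714 and 725 in OVA+PM2.5 replicates 1, 2 and 3. The sum of 8 club cell markers, secretory cells of the airway, was 89.0, 87017 and 7098 in those 3 libraries, against 44731 or more in the other 6. Skeletal muscle markers, 9 in number and all detected in this group, summed to 16348 FPKM in OVA+PM2.5 replicate 1, against at most 6.40 in Naive and OVA. Cardiac and atrial markers summed to 5562 in replicate 2, adipose markers to 3682 in replicate 3 and 682 in replicate 1, and liver markers to 1077 in replicate 1. Naive libraries also differed, with thymus markers at 289 in replicate 1 and adipose markers at 153 in replicate 3. The part of these tissue differences in the results below was not tested, and the members' calls are given with and without single libraries where this changes them.

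**Figure D1:**
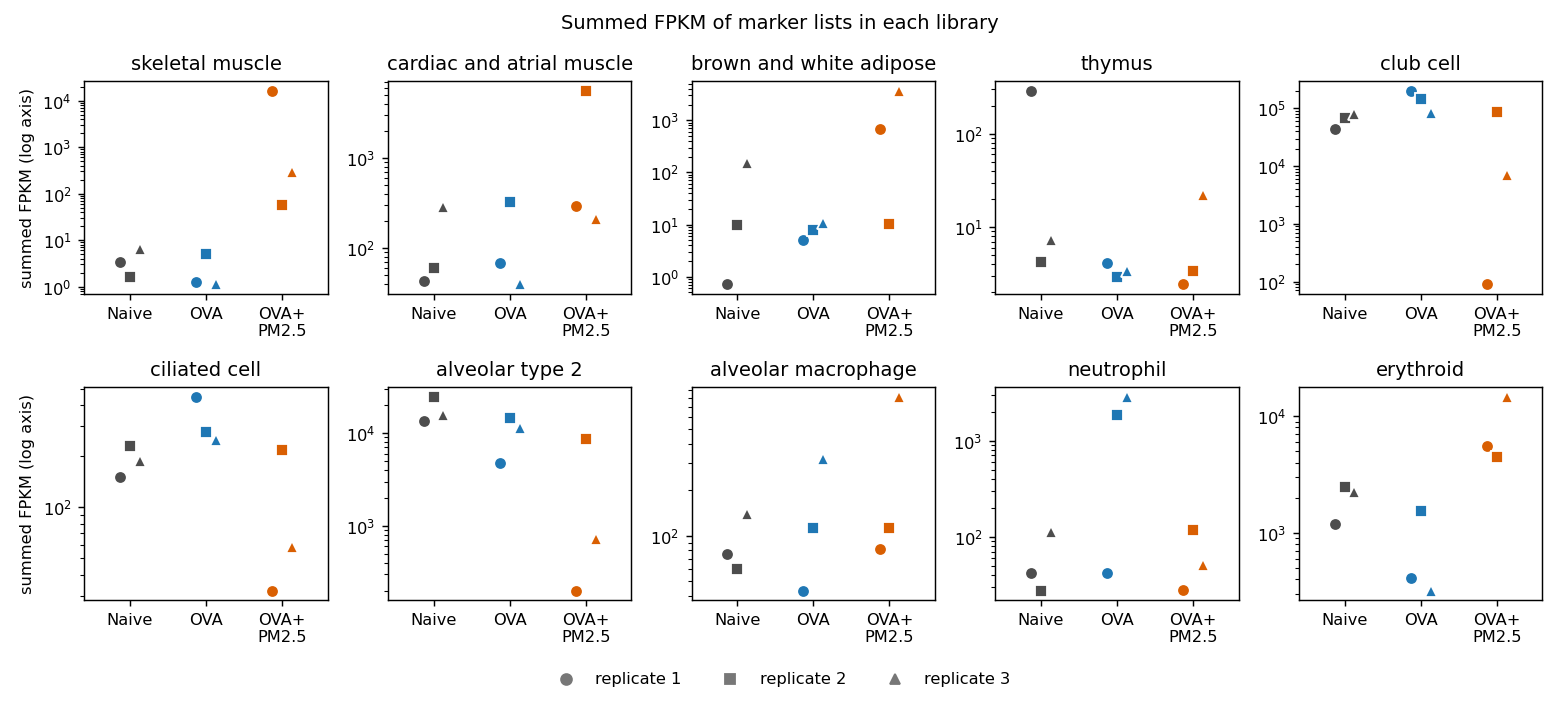
Summed FPKM (log axis) of 10 marker lists in each library, with groups on the horizontal axis and the replicate number as point shape. OVA+PM2.5 replicates 1 and 3 lie below the other 7 libraries for club cell, ciliated cell and alveolar type 2 markers, and replicate 2 is highest for cardiac and atrial markers.

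Antioxidant response elements were looked up in the promoter entries of the members, which run from 250 bases before to 50 bases after the gene start. The letters searched were TGACNNNGC on either strand, the core of the element. The entries come from RefSeq on GRCm38.p6, while the submitters state GRCm39 for the expression values, so positions are those of the RefSeq table. Of the 10 members, 8 had an entry and 6 of these held a match. Counted by entry, 6 of their 10 entries held a match, against 12.4% of all 32851 promoter entries. Gclc and Hmox1 had no entry. NRF2 is known to act on its targets through elements with this core, but whether it acts through the stretches below was not tested. The matches are given 5′ to 3′ on the strand that carries the motif, with the 9 matching bases in capitals.

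Nfe2l2, chr2:75704885-75704913, minus strand: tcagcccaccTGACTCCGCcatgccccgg
Gclm, chr3:122245413-122245441, minus strand: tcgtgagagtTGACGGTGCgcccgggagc
Gsta3, chr1:21240454-21240482, plus strand: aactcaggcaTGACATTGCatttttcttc
Txnrd1, chr10:82859104-82859132, minus strand: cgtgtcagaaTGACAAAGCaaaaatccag
Srxn1, chr2:152105542-152105570, minus strand: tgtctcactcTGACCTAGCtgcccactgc
Mt2, chr8:94172529-94172557, plus strand: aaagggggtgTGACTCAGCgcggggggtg

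The match in Txnrd1 lies in 1 of its 3 entries. Those of Nfe2l2, Gclm, Gsta3, Txnrd1 and Mt2 start at −240, −134, −121, −92 and −79 bases from the gene start, and that of Srxn1 at 29 bases. A match describes these letters and does not show binding. Bases outside the entries were not searched, so a member without a match may hold one elsewhere.

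Levels of different genes can be compared only per length, and the length behind the FPKM had to be examined first. For 96.3% of 13018 well-covered genes it equalled the summed length of all transcripts of the gene in GENCODE M21, rather than its merged exons. Genes with many annotated transcripts are therefore understated. GENCODE M21 annotates GRCm38, while the stated build is GRCm39, and this difference was not resolved. Txnrd1 was divided by 18182 bases from 8 transcripts, 2.57 times its merged exon length, and Mt1 by 1.82 times and Nfe2l2 by 1.03 times theirs. Fold changes within a gene are not affected except through the pseudocount and the filter. Per merged exon length, Nfe2l2 was highest in Naive lung at 55.9 ± 8.61 (SD, n = 3). Gclc at 28.2, Gsta3 at 27.4, Mt1 at 23.8 and Hmox1 at 21.9 followed, and their replicate ranges overlapped. Txnrd1 stood at 12.5, Gclm at 11.3 and Srxn1 at 9.32, each overlapping its neighbour, and Slc7a11 at 0.502 was lowest of the 9 genes with a mean to compare, Mt2 being listed near 0. In OVA lung on the same scale Mt1 came first, at 79.9 against 50.2 for Nfe2l2.

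**Figure D2:**
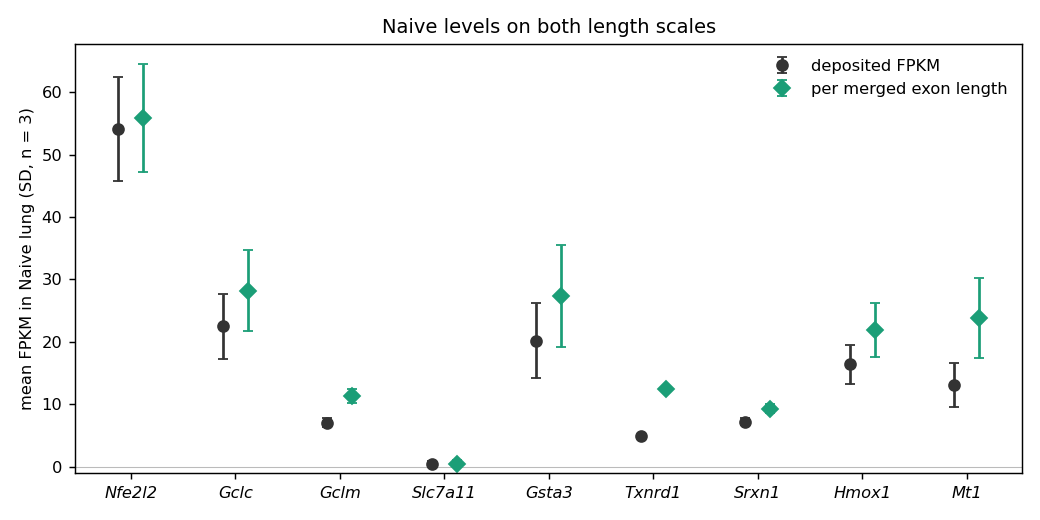
Mean Naive level of 9 genes (SD, n = 3) as deposited FPKM (circles) and per merged exon length (diamonds). Txnrd1 moves from 4.86 to 12.5 and Mt1 from 13.1 to 23.8, while Nfe2l2 moves from 54.1 to 55.9.

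The first question was whether the allergen course itself moves these genes. In OVA against Naive lung, Mt1, Txnrd1, Gclc, Gclm, Gsta3 and Srxn1 stood higher in every OVA library than in any Naive library. Nfe2l2, Hmox1 and Slc7a11 overlapped between the groups. No member passed an adjusted p of 0.05 in limma fitted to all 9 libraries, where 0.0154% of 12982 genes did, and 4 had an unadjusted p under 0.05, against 11.4% of genes. The fit of the 6 Naive and OVA libraries alone called 2 members, Mt1 and Txnrd1, where 6.89% of genes were called. Groups without overlap and with higher OVA values were found in 6 members of 9 tested, against 11.2% of all genes, and with lower OVA values in 0, against 22.4%. The median log2 fold change of the 9 members was 0.58, against −0.11 over all genes. In RNA of whole lung, more or fewer cells of a type and more or less RNA per cell cannot be told apart.

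Mt1, a zinc- and copper-binding metallothionein, stood in Naive replicates 1, 2 and 3 at 9.19, 14.1 and 16.0 FPKM, and at 34.4, 39.8 and 57.5 in OVA. The lowest OVA library was above the highest Naive library by more than the whole Naive range. Its log2 fold change on the log2(FPKM + 0.5) scale, used for all members, was 1.71 ± 0.38 (SE; limma adjusted p 0.197), with a 95% interval of 0.85 to 2.57. The OVA mean was 3.35 times the Naive mean. In the 6-library fit the adjusted p was 0.0201, and with 1 of those libraries left out it ran from 0.0366 to 0.0766, above 0.05 without Naive replicate 1, without Naive replicate 3 or without OVA replicate 3.

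Txnrd1, the cytosolic reductase that keeps thioredoxin reduced, stood at 4.81, 5.03 and 4.73 FPKM in Naive and at 9.50, 9.97 and 8.32 in OVA. All OVA values were high, and the Naive values were nearly equal. The log2 fold change was 0.86 ± 0.20 (SE; limma adjusted p 0.208, and 0.0205 in the 6-library fit). Leaving out Naive replicate 1 or Naive replicate 3 took the latter to 0.0800 and 0.0996, and the other 4 omissions left it from 0.0430 to 0.0471.

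Glutathione synthesis begins with cystine import and the joining of glutamate and cysteine. Gclc, the catalytic subunit of glutamate-cysteine ligase, stood at 17.9, 28.1 and 21.6 FPKM in Naive and at 37.9, 34.1 and 42.6 in OVA. Its modifier subunit Gclm stood at 6.26, 7.62 and 7.24 in Naive and at 12.9, 9.57 and 10.01 in OVA. Both groups were apart for each gene, with log2 fold changes of 0.77 ± 0.31 (limma adjusted p 0.402) for Gclc and 0.58 ± 0.20 (adjusted p 0.343) for Gclm, and the 6-library fit gave 0.0635 and 0.0791. Slc7a11, the cystine carrier subunit of the cystine and glutamate exchanger, was listed at 0.944, 0.0758 and 0.148 FPKM in Naive and at 0.526, 0.414 and 0.800 in OVA. Its Naive values rest on 262, 20 and 42 fragments, and Naive replicate 1 was above every OVA library. Thymus markers summed to 289 FPKM in that library, against 4.27 and 7.29 in Naive replicates 2 and 3. The part of this in the Slc7a11 value was not tested. The log2 fold change of Slc7a11 was 0.39 ± 0.34 (limma adjusted p 0.687), and it was 0.81 without Naive replicate 1 and 0.14 without Naive replicate 2. A pseudocount of 0.1 gave 0.89 and voom on recovered fragments 1.31, with 0 calls in any setting.

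Gsta3, an alpha-class glutathione transferase, stood at 13.7, 21.4 and 25.5 FPKM in Naive and at 31.5, 36.5 and 28.1 in OVA. The lowest OVA value was close above the highest Naive one, and the log2 fold change was 0.69 ± 0.45 (limma adjusted p 0.577). Alpha-class transferases are close paralogs, 0.273% of the 50-base words of Gsta3 occur in other genes, and how the counting split shared reads is not given in the sources used here. Srxn1, the sulfiredoxin that restores over-oxidised peroxiredoxins, stood at 7.82, 7.07 and 6.81 in Naive and 8.81, 10.8 and 9.33 in OVA, with a log2 fold change of 0.39 ± 0.21 (limma adjusted p 0.519).

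Nfe2l2 itself stood at 44.5, 58.6 and 59.2 FPKM in Naive and 45.0, 49.2 and 51.5 in OVA (log2 fold change −0.14 ± 0.28, limma adjusted p 0.877). Hmox1, the inducible haem oxygenase, stood at 13.9, 20.0 and 15.2 in Naive and 17.3, 14.5 and 20.8 in OVA (0.10 ± 0.26, limma adjusted p 0.913). Both genes overlapped between the groups, and the sign of each turned under another scaling, with Nfe2l2 at 0.05 after quantile normalization and Hmox1 at −0.29 after scaling to a common sum. Markers of other cells differed between these groups as well. The club cell sum was 44731 to 81438 in Naive and 84424 to 202350 in OVA. Most of it came from Scgb1a1, with a highest Naive value of 77599 FPKM and a lowest OVA value of 78999. The ciliated cell sum was 152 to 228 in Naive and 247 to 446 in OVA, and the plasma cell sum 59.7 to 68.4 and 519 to 1729. The endothelial sum was lower, at 178 to 513 in OVA against 581 to 845 in Naive. The neutrophil sum was 27.6 to 112 in Naive and 42.5, 1830 and 2846 in OVA replicates 1, 2 and 3, where Mt1 stood at 34.4, 39.8 and 57.5. The part of these differences in the members' values was not tested.

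**Figure D3:**
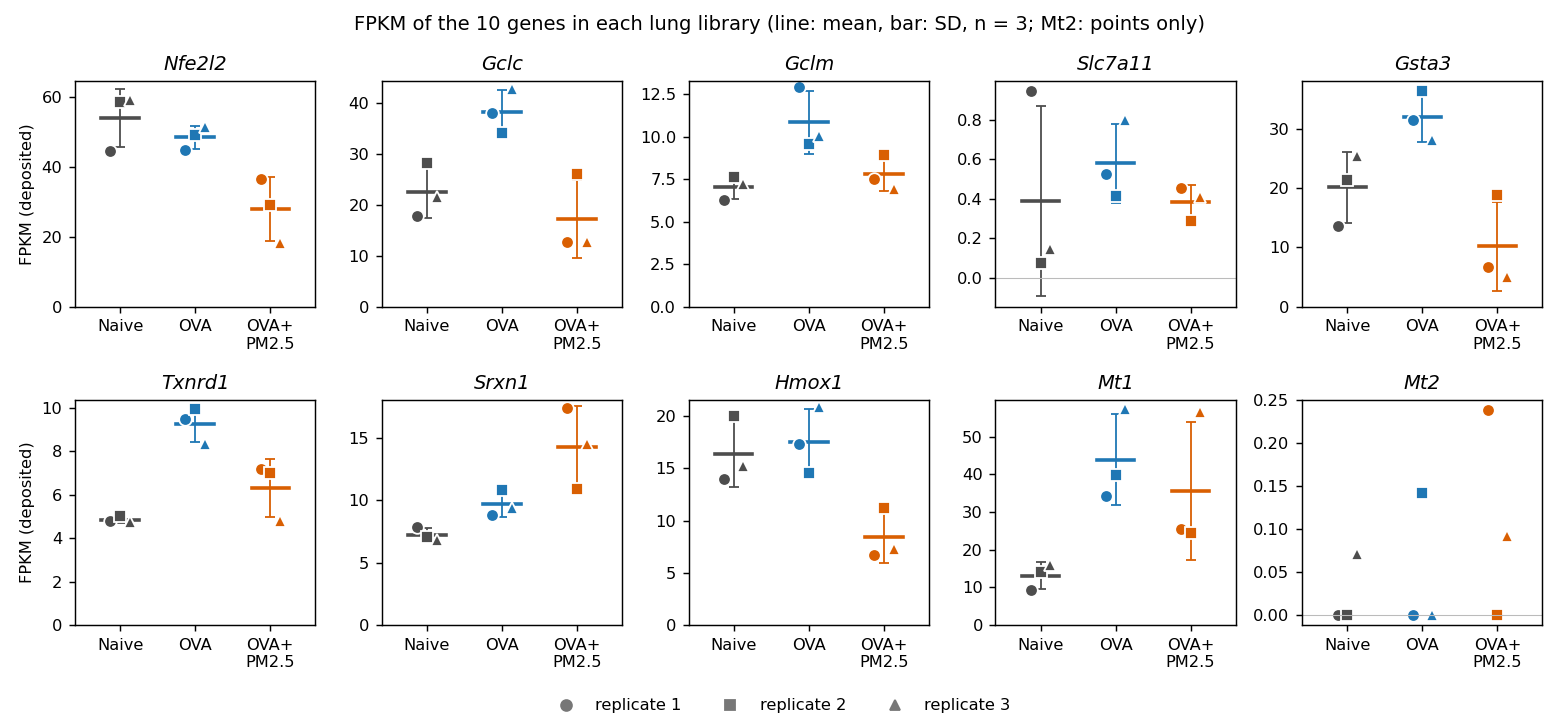
Deposited FPKM of the 10 genes in each library, by group, with the replicate number as point shape, the group mean as a line and the SD as a bar (n = 3). Mt2 is drawn as points only, without mean or SD. Mt1, Txnrd1, Gclc, Gclm, Gsta3 and Srxn1 lie higher in all OVA than in all Naive libraries, and Nfe2l2, Hmox1, Gclc, Gclm, Txnrd1 and Gsta3 lie lower in all OVA+PM2.5 than in all OVA libraries.

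The second question was whether particles alter these genes on top of the allergen. In OVA+PM2.5 against OVA lung, Nfe2l2, Hmox1, Gclc, Gclm, Txnrd1 and Gsta3 were lower in every OVA+PM2.5 library than in any OVA library, and Srxn1 was higher in every one. No member passed an adjusted p of 0.05 in limma, where 0.216% of genes did, and 7 of 9 had an unadjusted p under 0.05, against 27% of genes. Groups without overlap were lower in 6 members (20.1% of genes) and higher in 1 (6.86% of genes). The median log2 fold change was −0.53 over the members and −0.23 over all genes. OVA libraries serve here as the reference and were the raised group in the first comparison, so both comparisons share them.

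Gsta3 had the largest fold change of the members, at 6.65, 18.8 and 5.02 FPKM in OVA+PM2.5 replicates 1, 2 and 3. Replicates 1 and 3 were low and replicate 2 lay within the Naive range. The log2 fold change against OVA was −1.82 ± 0.45 (SE; limma adjusted p 0.0844). Gclc likewise had 1 high and 2 low libraries, at 12.7, 26.0 and 12.8 (−1.21 ± 0.31, limma adjusted p 0.0852), as did Hmox1 at 6.67, 11.2 and 7.27 (−1.04 ± 0.26, adjusted p 0.0849). Replicate 2, which kept most club cell and alveolar type 2 markers, was the highest of the 3 for each of these genes.

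Without OVA+PM2.5 replicate 2 the adjusted p for Gsta3, Gclc and Hmox1 was 0.00187, 0.00377 and 0.00754, with log2 fold changes of −2.37, −1.54 and −1.26, so that 4 members were called, the fourth being Srxn1, where 25.4% of all genes were called. The 2 OVA+PM2.5 libraries left in that fit are those in which lung epithelial markers were lowest. Leaving out any other library called none of the 9 members in this comparison.

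Nfe2l2 stood at 36.4, 29.1 and 18.3 FPKM in OVA+PM2.5, all below the OVA libraries (−0.84 ± 0.28, limma adjusted p 0.114). Its lowest value was in replicate 3, not in replicate 1, where Hmox1 was lowest. Txnrd1 at 7.17, 7.01 and 4.78 (−0.53 ± 0.20, adjusted p 0.134) and Gclm at 7.53, 8.92 and 6.93 (−0.45 ± 0.20, adjusted p 0.183) were also below OVA. Slc7a11 at 0.457, 0.287 and 0.408 overlapped OVA.

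Srxn1 differed from the other targets. It stood at 17.4, 10.9 and 14.5 FPKM in OVA+PM2.5, above all OVA and all Naive libraries, though replicate 2 exceeded the highest OVA library only narrowly. Against OVA the log2 fold change was 0.52 ± 0.21 (limma adjusted p 0.159), and without OVA+PM2.5 replicate 2 it was 0.69 (adjusted p 0.0304). Replicate 1 and replicate 3, its highest libraries, were also those with the most skeletal muscle and adipose marker signal, and the part of this in its level was not tested.

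Mt1 stood at 25.6, 24.3 and 56.7 FPKM in OVA+PM2.5 and overlapped OVA (−0.38 ± 0.38, limma adjusted p 0.537). Replicate 3 was the highest and came close to the highest OVA library. A p above the threshold does not show that groups are alike, since the 95% interval of the log2 fold change is −1.24 to 0.48. Without OVA+PM2.5 replicate 3 the log2 fold change was −0.77 against OVA and 0.94 against Naive. That library also had the most adipose marker signal, and the part of this in Mt1 was not tested.

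The third comparison set both exposures together against saline. In OVA+PM2.5 against Naive lung Srxn1 rose, the only one of 9 members past an adjusted p of 0.05 in limma, where 7.12% of genes were past it (1.53% higher and 5.59% lower). Its log2 fold change was 0.91 ± 0.21 (95% interval 0.43 to 1.39, limma adjusted p 0.0438), and the group means were 14.3 ± 3.25 and 7.23 ± 0.524 FPKM (SD, n = 3). The call held under 6 of 21 alternative settings, and in the fit of these 6 libraries alone the adjusted p was 0.122. Leaving out 1 library ended it for 8 of the 9: the limma adjusted p was 0.140, 0.129 and 0.148 without Naive replicates 1, 2 and 3, 0.0669, 0.0762 and 0.0726 without OVA replicates 1, 2 and 3, and 0.0813 and 0.0763 without OVA+PM2.5 replicates 1 and 3. The sign was positive in all 21 settings, and the log2 fold change ran from 0.75 to 1.27.

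Mt1 was higher in every OVA+PM2.5 library than in any Naive library (1.33 ± 0.38, limma adjusted p 0.0591), as was Srxn1, while Nfe2l2 (−0.98 ± 0.28, adjusted p 0.0586) and Hmox1 (−0.94 ± 0.26, adjusted p 0.0547) were lower in every one. Over all genes, 6.83% were higher and 33.2% lower without overlap. Gclc, Gclm, Txnrd1, Gsta3 and Slc7a11 overlapped Naive. Without OVA+PM2.5 replicate 2, 6 members were called: Srxn1 and Mt1 higher, and Nfe2l2, Hmox1, Gclc and Gsta3 lower, where 32.7% of all genes were called, with limma adjusted p of 0.00487, 0.0222, 0.0346, 0.00881, 0.0384 and 0.00477. The erythroid marker sum was 4483 to 14638 in OVA+PM2.5 against 1198 to 2482 in Naive, beside the lower haem oxygenase values, and its part in them was not tested.

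**Figure D4:**
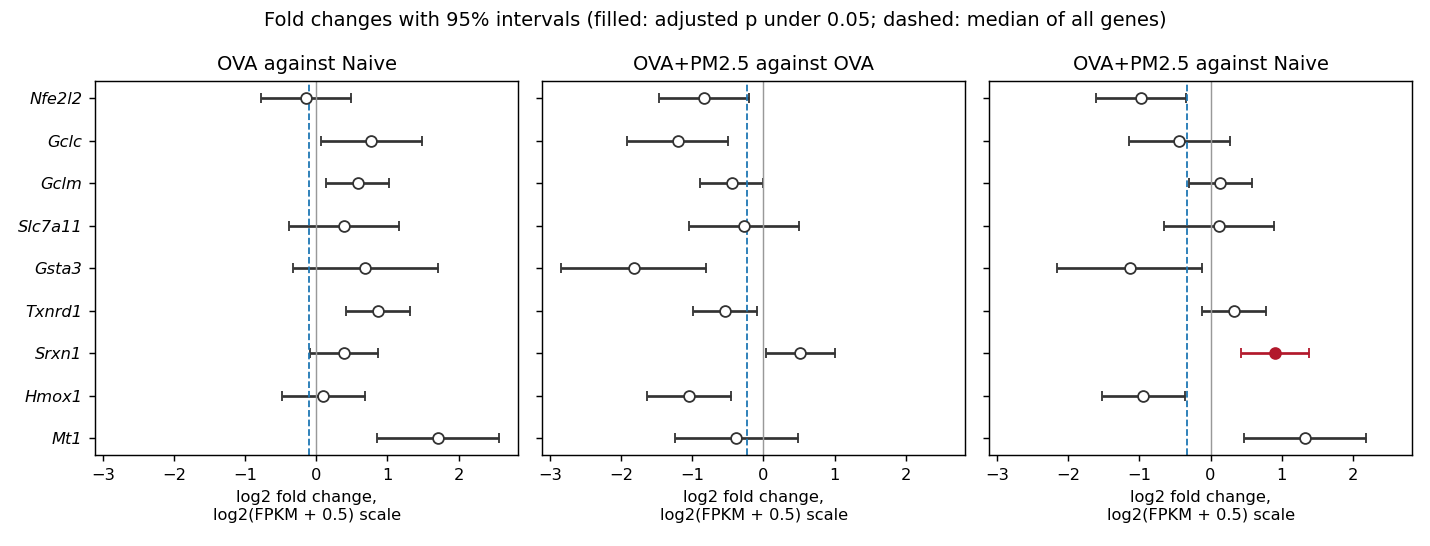
Log2 fold change (horizontal axis, log2(FPKM + 0.5) scale) of the 9 tested genes in each comparison, with 95% intervals. The filled point marks Srxn1, the gene past an adjusted p of 0.05, and the dashed line the median of all genes.

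The median of all genes was not at 0, at −0.11, −0.23 and −0.33 in the 3 comparisons, and scaling to a common sum moved it to −0.44, −0.05 and −0.49. The club cell gene Scgb1a1 alone took 0.00493% to 45.9% of a library's summed FPKM. Relative to the median of all genes, Mt1 stood 1.82 higher in OVA than in Naive and 1.66 higher in OVA+PM2.5 than in Naive, and the first value was 1.76 to 1.93 under 3 other scalings. Gsta3 stood at −1.60 in OVA+PM2.5 against OVA, Gclc at −0.98, Hmox1 at −0.82 and Srxn1 at 0.75. Srxn1 against Naive was at 1.24, and from 1.23 to 1.31 under 3 other scalings.

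Metallothioneins share a cluster on chromosome 8, in the RefSeq order Mt4, Mt3, Gm39227, Mt2, Mt1. Mt2, the second widely expressed metallothionein, was listed near 0 in every library. It had 0, 0 and 1 fragments in Naive, 0, 2 and 0 after allergen alone and 3, 0 and 1 in OVA+PM2.5, with FPKM of at most 0.238, and was not tested. Of its merged exons 73.5% overlap Gm45774 on the opposite strand, and 45.9% of its 50-base words occur in transcripts of other genes. Both strands were read for the words and Gm45774 was not left out, so the 2 shares are not separate and do not show copies at other places. Gapdh, which every cell uses, was also low at 0.794 to 4.61 FPKM as deposited and 2.36 to 13.7 per merged exon length. Of its 50-base words 25.1% were shared. A value near 0 here does not show that Mt2 was silent. Whether the counting used strand is not given in the sources used here, and the part of the overlap was not tested.

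The upstream sequence of both genes is shown, and its part in their values was not tested. Letters matching metal response elements, TGCACNC or TGCGCNC on either strand, and the antioxidant element are in capitals. The metal element letters occur in 25.7% of all promoter entries.

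Mt2, chr8:94172368-94172617, plus strand: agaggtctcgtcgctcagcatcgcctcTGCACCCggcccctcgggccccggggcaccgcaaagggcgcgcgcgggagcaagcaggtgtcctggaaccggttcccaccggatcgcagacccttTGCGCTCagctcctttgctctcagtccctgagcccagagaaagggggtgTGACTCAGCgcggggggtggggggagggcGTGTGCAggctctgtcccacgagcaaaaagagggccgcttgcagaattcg
Mt1, chr8:94178839-94179088, plus strand: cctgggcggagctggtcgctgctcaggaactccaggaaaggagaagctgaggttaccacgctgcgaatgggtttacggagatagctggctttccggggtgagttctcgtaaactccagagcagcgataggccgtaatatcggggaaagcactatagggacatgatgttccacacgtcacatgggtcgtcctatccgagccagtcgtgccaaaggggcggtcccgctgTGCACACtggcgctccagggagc

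Upstream of the start Mt2 had 3 such matches and Mt1 had 1, and a further 1 and 2 lay in the 50 bases after it. These counts depend on the gene start given in each entry, and bases beyond the entries were not searched. They do not rank the 2 genes by their metal elements. Srxn1 and Gclm also held metal element letters, in 1 and 3 places, 1 of those in Gclm overlapping its antioxidant element.

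Other genes of these pathways were read from 12 lists holding 151 genes, of which 139 were tested. In OVA against Naive the fit of all libraries called 0 of them (14 had an unadjusted p under 0.05), and the 6-library fit called 11 higher (7.91% of them, against 2.98% of all genes) and 3 lower (2.16%, against 3.91%). Of these 14 calls 0, 9 and 0 were left without Naive replicates 1, 2 and 3, and 6, 8 and 2 without OVA replicates 1, 2 and 3. Gsr, which reduces oxidised glutathione, stood at 23.2 ± 1.66 FPKM in OVA lung and 12.6 ± 0.997 in Naive, with all OVA libraries higher (log2 fold change 0.85, 6-library limma adjusted p 0.0246). Gstz1, a zeta-class transferase, stood at 13.5 and 5.71 (1.19, adjusted p 0.0201), and Gstm7, a mu-class transferase, at 3.08 and 1.25 (1.03, 0.0197). Akr1b8, an aldo-keto reductase, stood at 21.3 and 10.8 (0.98, 0.0348), Abcc3, which exports conjugates, at 8.01 and 3.25 (1.19, 0.0221), and the metal importer Slc11a2 at 11.5 and 5.02 (1.12, 0.0338).

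Lower in OVA by the same fit were Gpx7, a peroxidase of the endoplasmic reticulum, at 5.35 against 13.3 FPKM (−1.23, adjusted p 0.0166), Akr1b3 at 6.04 against 10.2 (−0.71, 0.0359), and the phosphatase Dusp1 at 9.12 against 31.7 (−1.79, 0.0299). Dusp1 is on the list of glucocorticoid-responsive genes and is also an immediate early gene, and the sum of immediate early and heat shock markers was 117 to 157 in OVA and 255 to 331 in Naive. Keap1 stood at 3.25 and 3.99 FPKM (limma adjusted p 0.606) and the metal sensor Mtf1 at 1.57 and 1.44 (adjusted p 0.873).

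In OVA+PM2.5 against OVA 0 of 139 were called by limma, against 0.216% of all genes, and 48 had an unadjusted p under 0.05. The 6-library fit also called 0, and without OVA+PM2.5 replicate 2 the fit of the others called 44, where 25.4% of all genes were called. The list median was −0.28. Lower values without overlap were found for Slc3a2, the partner chain of the Slc7a11 exchanger, at 12.2 against 28.2 FPKM (−1.33, limma adjusted p 0.0903), for Gsr at 12.2 against 23.2 (−1.001, 0.101) and for Akr1b8 at 10.2 against 21.3 (−1.03, 0.0762). In OVA+PM2.5 replicates 1, 2 and 3 Slc3a2 stood at 6.89, 21.0 and 8.63 FPKM and Gsr at 7.64, 18.9 and 9.97. Akr1b8 stood there at 10.2, 11.6 and 8.91. Replicates 1 and 3 had the lowest lung epithelial markers, and the part of this in the lower values was not tested. Prdx3, the mitochondrial peroxiredoxin, stood higher at 94.6 against 33.6 (1.43, limma adjusted p 0.0744). The haem synthesis enzyme Fech was also higher, at 4.51 against 1.60 (1.19, limma adjusted p 0.0744). Both were highest in OVA+PM2.5 replicates 1 and 3, and the part of other tissue was not tested.

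In OVA+PM2.5 against Naive 10 of 139 were called (7.19%, against 7.12% of all genes), which is near the background. Prdx3, Fech, Gstm7 and the mitochondrial superoxide dismutase Sod2 rose, by 1.25, 1.22, 0.98 and 1.16 on the log2 scale (limma adjusted p 0.0453, 0.0385, 0.0428 and 0.0454). Gpx7, the extracellular dismutase Sod3, the stress-response factor Atf4, and Tsc22d3, Per1 and Dusp1 of the glucocorticoid-responsive list fell by 1.57, 2.02, 1.26, 1.71, 1.43 and 2.32 (adjusted p 0.0436, 0.0467, 0.0293, 0.0436, 0.0156 and 0.034). None of the 10 was called in the fit of these 6 libraries alone, where their adjusted p was 0.11 to 0.124. Of the 10 calls 0 were left without any 1 Naive library and 1 without any 1 OVA library. Leaving out OVA+PM2.5 replicate 1 kept 1 of them, replicate 2 kept 10 and replicate 3 kept 2. Prdx3, Fech and Sod2 were highest in OVA+PM2.5 replicates 1 and 3, the libraries with the most skeletal muscle and adipose marker signal. Gstm7 was highest in replicate 2, as were Gpx7, Sod3, Atf4, Per1 and Dusp1 within this group, while Tsc22d3 was highest in replicate 1. Sod3 stood at 15.1, 76.8 and 33.8 FPKM in replicates 1, 2 and 3. The part of other tissue, or of the lower lung markers, in these calls was not tested.

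Likeness was measured as the root mean square difference between gene-centred log2 values over the 9 libraries. Gclm and Txnrd1 were each other's nearest members at 0.202, as were Gclc and Hmox1 at 0.308. Srxn1 was farther from its nearest member, Txnrd1, at 0.490, and Mt1 from its own, also Txnrd1, at 0.704. Outside the members, Ccdc13 at 0.0902 and Osbpl3 at 0.0927 lay nearest to Gclc, and Taok3 at 0.103 and Arhgef16 at 0.106 nearest to Hmox1. Gstz1 at 0.371 and St8sia6 at 0.375 lay nearest to Mt1.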

How the data were processed

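Lung poly(A) RNA was extracted with Trizol and prepared with a NEBNext Ultra kit, per the labels' protocols. The authors deposited 1 table of FPKM values for the 9 libraries; reads were mapped to GRCm39 per the submitters' processing notes, with aligner and counter not given in the sources used here. All 9 columns were mapped to samples by name, with 0 unmapped. Whole reads were recovered from FPKM steps, to a tolerance of 0.001, for all 17298 genes detected in 2 or more libraries, with relative depths of 0.787 to 1.02.

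Genes with FPKM of at least 0.5 in at least 3 of 9 libraries (12982) were tested as log2(FPKM + 0.5) with limma 3.58.1 in R 4.3.3, in 1 fit of 3 groups with 6 residual degrees of freedom, and adjusted by Benjamini-Hochberg over all genes at a threshold of 0.05. An exact permutation test of 3 against 3 libraries cannot go below 0.1. The members, gene lists and tests were chosen with earlier results of these data known. Named are all 10 members, the 2 genes of smallest p of each pathway list in each comparison, and the nearest genes by likeness; Keap1, Mtf1, Tsc22d3, Mt3, Mt4, Gapdh and Scgb1a1 were added after their values were seen. Not all genes the rule selects are printed. Tested on simulated data for OVA against Naive, with 200 of 12982 genes changed by 2 log2 units, the fit found 72.3% of them. The mean number of false calls was 6.05. The largest member change in that comparison was 1.71, for Mt1, so the share found at the members' sizes was not measured. Deviations of same-numbered libraries correlated over 0.1 in 3 of 9 pairs (0.162, 0.169 and 0.278; lowest of all −0.171), so numbers were not taken as pairs. Alternatives were other pseudocounts, filters, scalings, libraries and models, and, chosen after seeing the data, merged exon lengths and 6-library fits without single libraries. Other steps used matplotlib 3.10.9, scipy 1.17.1, pandas 2.3.3 and numpy 2.4.6 in Python 3.11.15.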

Additional observations from a re-analysis of the deposited data

How the results depend on the processing

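Of 2274 values of 99 named results under the alternatives, 2035 kept direction and side of the threshold, 126 lost the threshold, 103 gained it and 10 reversed. Counts of genes past the threshold moved most. In OVA against Naive the 2 genes became 1 (pseudocount 0.1 or merged exon length), 20 (pseudocount 1), 0 (no filter, with 1800 at an unadjusted p under 0.05), 895 (6-library fit), 40 (common sum), 18 (quantile normalization) and 817 (group weights), and 0 to 54 with a library left out. In the 6-library fit they were 37, 577, 21, 370, 560 and 152 without Naive replicates 1, 2 and 3 and OVA replicates 1, 2 and 3, and the members called 0, 2, 0, 2, 2 and 1. Members called were 2 in the 6-library fit and 2 with group weights. In OVA+PM2.5 against Naive the 924 genes (198 higher, 726 lower) became 488 (pseudocount 0.1), 157 (no filter), 0 (6-library fit, 3594 unadjusted), 1645 (common sum; 204 and 1441), 267 (median-ratio scaling; 165 and 102), 391 (quantile; 209 and 182), 473 (group weights) and 469 (voom on recovered fragments), and 0 to 4248 with a library left out. The 1 member called became 0 under pseudocount 0.1, no filter, 6-library fit, common sum, group weights and voom, and 0 to 6 with a library left out. In OVA+PM2.5 against OVA the 28 genes became 12 (no filter), 50 (stricter filter), 0 (6-library fit, 2393 unadjusted), 98 (common sum), 97 (median-ratio), 138 (quantile) and 7 (group weights), and 0 to 3295 with a library left out, with 0 to 4 members. The replicate block gave 0, 0 and 50 genes in OVA against Naive, OVA+PM2.5 against OVA and OVA+PM2.5 against Naive (1331 and 3169 unadjusted in the first 2), and 0 members. The labels do not say whether the replicate numbers pair the samples, and they were not taken as pairs. Reversed values were −0.0297 for Gclm in OVA+PM2.5 against Naive, −0.29 for Hmox1 and −0.17 for Sod2 in OVA against Naive (common sum), and 0.053 for Nfe2l2 in OVA against Naive (quantile). With a library left out, Hmox1 in OVA against Naive ran from −0.03 to 0.25, −0.0049 without Naive replicate 1 in both fits and −0.0287 without OVA replicate 3, and Slc7a11 in OVA+PM2.5 against Naive from −0.14 to 0.53. The cause of these changes was not tested.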

Other observations

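Among the other metallothioneins, chosen after their values were seen, Mt4 stood at 45.7 FPKM in OVA+PM2.5 replicate 1 and was listed at 0 in the other 8 libraries. Mt3 stood at 0 to 0.287 FPKM in the Naive and OVA libraries and at 0, 3.09 and 0.906 in OVA+PM2.5 replicates 1, 2 and 3. The summed skeletal muscle markers were 16348 FPKM in replicate 1 and the summed cardiac and atrial markers 5562 in replicate 2, and the part of other tissue in Mt3 and Mt4 was not tested.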
